A study of Homo sapiens with 2 samples.

Results

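Axon guidance genes are the semaphorins and their plexin receptors, the ephrins and their Eph receptors, the Slits with their Robo receptors, and the netrins with their Unc5 receptors. They were taken by symbol from the gene column of the deposited single-cell count tables: 77 symbols began with the family names, and the 49 with 20 or more raw UMIs (unique molecular identifiers, each a counted RNA molecule) over both libraries are described here. The tables hold 36601 genes, of which 14363 have 20 or more UMIs. By family the members were 16 of 24 semaphorin symbols (SEMA4A was left out by the rule), 8 of 9 plexin, 8 of 16 Eph receptor, 6 of 8 ephrin, 5 of 7 Robo and Slit, and 6 of 13 Unc5 and netrin symbols. The members include 4 antisense RNAs named after a guidance gene, SEMA3F-AS1, SEMA6A-AS1, EPHA5-AS1 and UNC5B-AS1. They also include UNC50, a Golgi membrane protein that shares only the start of its name with the netrin receptors. Closest to the minimum lay EPHA5-AS1 with 20 UMIs and SEMA3B with 22 on the inside, and ROBO2 and EPHA6 with 19 each and EFNB3 with 16 on the outside. Of the 28 symbols under the minimum, 8 had no UMI and 20 had 1 to 19, among them NTN1 with 3, SEMA3C with 8, PLXNC1 with 14 and SEMA7A with 15. Of the 49 members, 34 had 100 or more UMIs.

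The cells are HUVECs, primary endothelial cells of the human umbilical vein, which had lined microfluidic channels 50 µm in size over about 48 hours of medium flow. In the 5% pdRBC group the lined device was perfused for 4 hours with healthy red blood cells among which 5% had been treated with nystatin and sucrose washes to draw out water, until their hemoglobin concentration (MCHC) reached 40 to 42 g/dL. Such cells deform less, as sickle red cells do. In the hRBC group the perfused red cells were all healthy, with the same lining, device type and time. A single 5′ library was made per group, so no difference between the groups has a replicate check and none carries a p-value.

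After filtering, the 5% pdRBC library held 1601 cells with 16127985 UMIs and a median of 9566 UMIs per cell, against 2555 cells with 13335148 UMIs and a median of 2175 in the hRBC library. The label of the cells was checked on endothelial markers: 10 of 10 had 100 or more UMIs, and their summed level was 3910 CPM (UMIs per 1000000 UMIs of the library's kept cells) in 5% pdRBC and 4100 CPM in hRBC cells. Of 5 erythroid markers 3 were at 0 in both libraries, and hemoglobin beta (HBB) had 0 UMIs in 5% pdRBC and 12 in hRBC cells. Over all barcodes, before filtering, 1 of the 5 had 100 or more UMIs. Of 6 fibroblast and mural markers RGS5, with 5295 UMIs in 5% pdRBC and 4918 in hRBC cells, gave nearly all of a summed 329 and 370 CPM. Since guidance genes are best known from neurons, 5 neuronal markers were read too: STMN2 was at 0 in both, SNAP25 had 5 and 6 UMIs in 5% pdRBC and hRBC cells, and TUBB3, MAP2 and SYT1, which other cell types also express, gave nearly all of a summed 223 and 242 CPM. Immediate early genes summed to 770.0 CPM in 5% pdRBC and 308 in hRBC cells, and cycling markers to 162 and 242, and the part of either in the results below was not tested. The libraries shared 9 barcodes, 8 of them kept cells in 5% pdRBC and 7 in hRBC.

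Guidance ligands steer growing axons and, in vessels, sprouting endothelial tips, by attracting or repelling the cell that carries the receptor. Secreted class 3 semaphorins act through plexins, most with a neuropilin as co-receptor, while membrane-bound semaphorins and ephrins act on the neighbouring cell. In the vessel wall ephrin-B2 marks arteries and its receptor EphB4 marks veins, and plexin-D1 and Robo4 are known mainly from endothelium.

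Between the libraries most guidance genes lay close together. Levels are given in CPM, and since a 5′ library counts each molecule once they are not divided by gene length. Folds put 5% pdRBC over hRBC after adding 0.5 UMIs to either sum, and their exact 95% intervals cover counting error only, not the spread between devices, cultures or cells. Of the 49 members, 30 (61.2%) were within 1.2-fold and 39 (79.6%) within 1.5-fold, against 71.9% and 91.8% of all genes with 20 or more UMIs. The median log2 fold of the members was 0.09, beside 0.02 over all those genes. A gene is called here where its fold reaches 1.5 and the interval leaves out 1. Called higher in 5% pdRBC were 3 members, SEMA6C, SEMA4F and SEMA4G, which is 6.12% of 49 beside a background of 2.44% of all genes. Called lower were also 3 members, UNC5D, SEMA3F-AS1 and UNC5B-AS1, again 6.12%, beside a background of 1.67%. Among the 34 members with 100 or more UMIs, only SEMA6C was called higher and only UNC5D lower (2.94% each, beside 1.58% and 1.13% of all genes of that depth). The same 2 were the calls among the 31 members with 200 or more UMIs (3.23% each, beside 0.978% and 0.762%). None of the 6 calls was a plexin, an ephrin, an Eph receptor, a Slit or a Robo.

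Summed over each family, the 5% pdRBC library was higher by less than 1.1-fold in 5 families, and for the plexins the interval held no difference. Semaphorin UMIs summed to 218 CPM in 5% pdRBC and 202 in hRBC cells, a log2 fold of 0.10 (0.03 to 0.18). Plexins gave 856 and 852 CPM, with a log2 fold of 0.01 (-0.03 to 0.04). Eph receptors gave 322 CPM in 5% pdRBC and 301 in hRBC cells, a log2 fold of 0.10 (0.04 to 0.16), and ephrins 413 and 384 CPM, a log2 fold of 0.11 (0.05 to 0.16). Robo and Slit genes summed to 305 CPM in 5% pdRBC and 313 in hRBC cells, with a log2 fold of -0.04 (-0.10 to 0.02). Unc5 and netrin genes summed to 206 and 193 CPM, a log2 fold of 0.10 (0.02 to 0.17). With 1 library per group, differences of this size cannot be set against any spread between devices. These sums pool all cells, and inside clusters some ran in opposite directions, as given below.

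**Figure D1:**
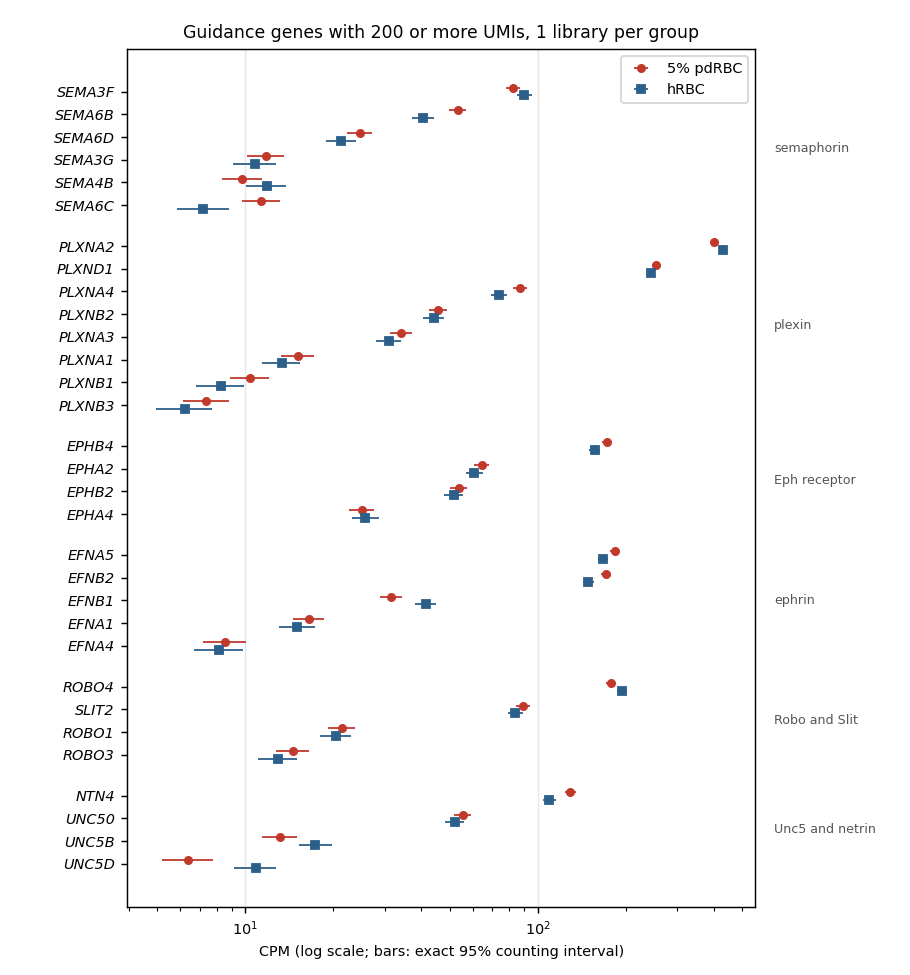
Levels of the 31 guidance genes with 200 or more UMIs, grouped by family, in CPM on a log axis, with 5% pdRBC as circles, hRBC as squares and bars for the exact 95% counting interval of each library. The circle and the square lie close together for most genes, PLXNA2 for example at 402 and 432, and are set apart for SEMA6C (11.3 and 7.20) and UNC5D (6.39 and 10.9).

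Among the secreted semaphorins, SEMA3F, a repellent that acts through neuropilin-2, had 82.5 CPM (1330 UMIs) in 5% pdRBC and 90.1 CPM (1202 UMIs) in hRBC cells, a fold of 0.915 (0.846 to 0.99). SEMA3G, a class 3 semaphorin made by arterial endothelium, had 11.8 CPM in 5% pdRBC and 10.8 CPM in hRBC cells, and its interval (0.874 to 1.36) held 1. Both differ far more between cell states than between the libraries, as described below. SEMA3D had 5.64 and 5.4 CPM, with 91 UMIs in 5% pdRBC and 72 in hRBC cells. SEMA3A, the founding axon repellent of the class, had 19 UMIs in 5% pdRBC and 9 in hRBC cells, and SEMA3B 8 and 14, too few to place.

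Of the membrane-bound semaphorins, SEMA6C was the one member of 100 or more UMIs called higher. It had 11.3 CPM (183 UMIs) in 5% pdRBC and 7.20 CPM (96 UMIs) in hRBC cells, which is 1.57-fold (1.22 to 2.04). With cells thinned to 2000 UMIs each its log2 fold was 0.74, beside 0.65 here, but neither it nor any other member was then called higher. Over all alternatives its log2 fold ranged from 0.53, short of the threshold, to 0.83. SEMA6B, a ligand of plexin-A receptors, had 53.3 CPM (859 UMIs) in 5% pdRBC and 40.6 CPM (541 UMIs) in hRBC cells, 1.31-fold (1.18 to 1.46). Its log2 fold was above 0 in each of clusters 0, 1, 3 and 5, described below, at 0.18 to 0.65. SEMA6D, a ligand of plexin-A1, had 24.6 CPM in 5% pdRBC and 21.3 CPM in hRBC cells, 1.16-fold (0.990 to 1.35). SEMA4B had 9.80 and 11.8 CPM, with 158 UMIs in each library and a fold of 0.827 (0.659 to 1.04). SEMA4F had 47 UMIs in 5% pdRBC and 21 in hRBC cells, 1.83-fold (1.08 to 3.26). SEMA4G had 23 and 7 UMIs, 2.59-fold (1.13 to 7.5), a wide interval. The class 4 and class 6 members thus supply all calls in the higher direction. SEMA4C, a ligand of plexin-B2, had 97 UMIs in 5% pdRBC and 59 in hRBC cells, 1.35-fold (0.974 to 1.91), and SEMA4D, the ligand of plexin-B1, 30 and 13 UMIs, 1.87-fold (0.966 to 3.99), both with intervals that hold 1. SEMA6A had 24 and 22 UMIs.

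The plexins, the receptors of the semaphorins, differed little. PLXNA2 had 402 CPM (6485 UMIs) in 5% pdRBC and 432 CPM (5757 UMIs) in hRBC cells, a fold of 0.931 (0.899 to 0.965). PLXND1, the endothelial plexin, had 254 CPM in 5% pdRBC and 244 CPM in hRBC cells, 1.04-fold (0.994 to 1.09). PLXNA4, a receptor for class 3 and class 6 semaphorins, had 86.9 and 73.7 CPM, 1.18-fold (1.09 to 1.28). PLXNA2 supplied 47.0% of the plexin UMIs in 5% pdRBC and 50.6% in hRBC cells, so the family sum leans on it. PLXNB2 had 45.6 CPM in 5% pdRBC and 44.2 in hRBC cells, PLXNA3 34.2 and 31.0, PLXNA1 15.1 and 13.3, and PLXNB3 7.38 and 6.22. PLXNB1 had 10.4 and 8.25 CPM, 1.26-fold (0.987 to 1.62). The intervals of these last 5 plexins all held 1.

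**Figure D2:**
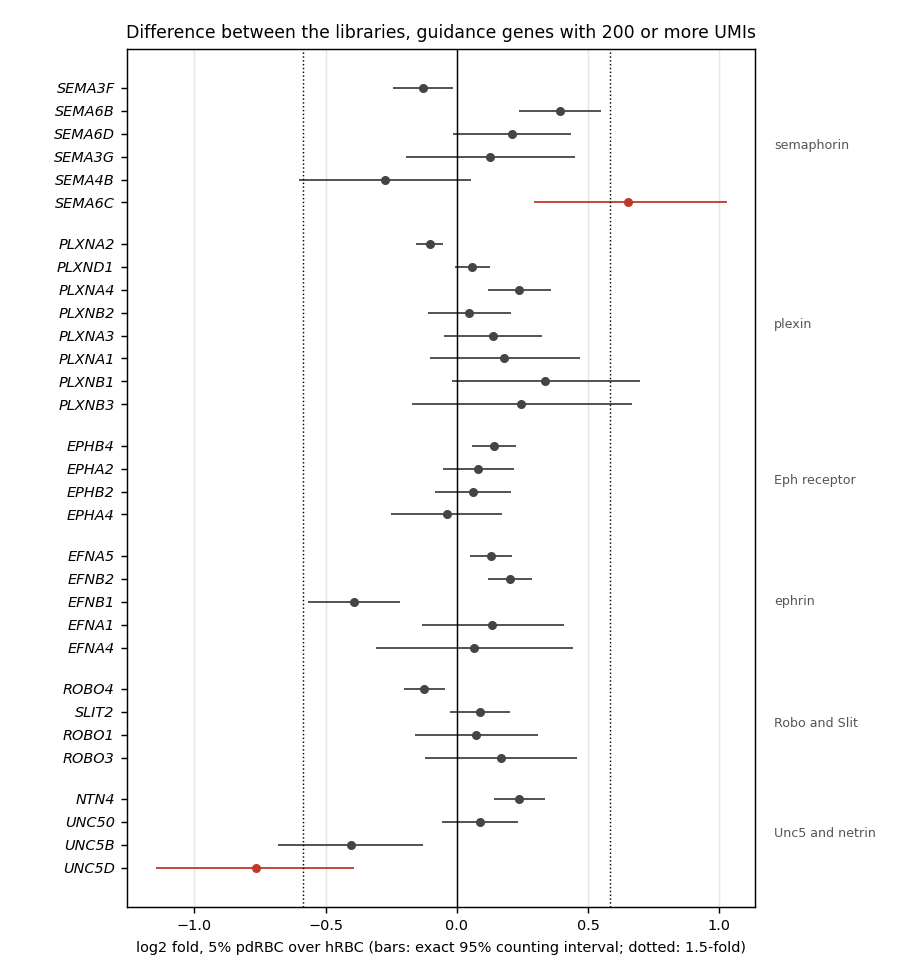
Log2 fold of 5% pdRBC over hRBC for the same 31 genes, with exact 95% counting intervals and dotted lines at 1.5-fold in either direction. The points of 29 genes lie between the dotted lines; SEMA6C (log2 fold 0.65) and UNC5D (-0.77) lie outside and are drawn in red.

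Among the ephrins, EFNB2, the arterial ephrin-B2, had 172 CPM (2767 UMIs) in 5% pdRBC and 149 CPM (1989 UMIs) in hRBC cells, 1.15-fold (1.09 to 1.22). EFNB1, its close relative, went the other way, with 31.6 CPM (510 UMIs) in 5% pdRBC and 41.5 CPM (553 UMIs) in hRBC cells, 1.31-fold lower (1.16 to 1.48). EFNA5, a lipid-anchored A-class ephrin, had 183 CPM in 5% pdRBC and 167 CPM in hRBC cells, 1.09-fold (1.04 to 1.16). EFNA1, first known as a TNF-induced gene of endothelial cells, had 16.6 and 15.1 CPM, and EFNA4 had 8.56 and 8.17, both with intervals around 1. EFNA3 had 30 UMIs in 5% pdRBC and 37 in hRBC cells. On chromosome 1 EFNA4, EFNA3 and EFNA1 lie in a row, 9.32 kb and 39.9 kb apart in the GENCODE 29 annotation of GRCh38.

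Of the Eph receptors, EPHB4, the venous receptor of ephrin-B2, had 173 CPM (2783 UMIs) in 5% pdRBC and 157 CPM (2087 UMIs) in hRBC cells, 1.10-fold (1.04 to 1.17). Ligand and receptor of this pair were thus both slightly higher in 5% pdRBC. EPHA2, the main endothelial receptor of ephrin-A1, had 64.4 CPM in 5% pdRBC and 60.8 in hRBC cells, EPHB2 53.8 and 51.6, and EPHA4, which binds ephrins of both classes, 25.1 and 25.8. The intervals of these 3 held 1. EPHA5 had 51 UMIs in 5% pdRBC and 50 in hRBC cells, EPHB6 24 and 13, and EPHB1 20 and 12.

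In the Slit and Robo family, ROBO4, the endothelial Robo, had 178 CPM (2870 UMIs) in 5% pdRBC and 194 CPM (2586 UMIs) in hRBC cells, a fold of 0.918 (0.870 to 0.968). SLIT2, a secreted ligand of the Robo receptors, had 89.1 and 83.9 CPM, 1.06-fold (0.981 to 1.15). ROBO1, which binds Slits directly, had 21.5 CPM in 5% pdRBC and 20.4 in hRBC cells. ROBO3, which lies 2.22 kb from ROBO4 on chromosome 11, had 14.6 and 13.0 CPM. SLIT3 had 29 UMIs in 5% pdRBC and 20 in hRBC cells. Of this family only ROBO4 had an interval that left out 1.

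Among the netrins and Unc5 receptors, NTN4, a secreted laminin-like protein of basement membranes, had 129 CPM (2082 UMIs) in 5% pdRBC and 109 CPM (1460 UMIs) in hRBC cells, 1.18-fold (1.10 to 1.26). UNC5B, the netrin receptor of endothelial cells, had 13.1 CPM (212 UMIs) in 5% pdRBC and 17.4 CPM (232 UMIs) in hRBC cells, 1.32-fold lower (1.09 to 1.60). Its direction turned, to a log2 fold of 0.31, when cells were thinned to 2000 UMIs each. Its antisense RNA UNC5B-AS1 had 15 and 25 UMIs, 1.99-fold lower (1.02 to 4.11). The antisense gene lies within UNC5B on the other strand, and whether the counting used strand is not given in the sources used here, so the 2 are not independent readings for certain. The same holds for SEMA3F-AS1, which overlaps the start of SEMA3F and had 19 UMIs in 5% pdRBC and 37 in hRBC cells, 2.33-fold lower (1.32 to 4.34). With cells thinned to 2000 UMIs each the log2 fold of SEMA3F-AS1 was -0.18, short of the threshold. SEMA6A-AS1 (36 UMIs in 5% pdRBC and 21 in hRBC cells) overlaps SEMA6A and EPHA5-AS1 (11 and 9) overlaps EPHA5. UNC5D had 6.39 CPM (103 UMIs) in 5% pdRBC and 10.9 CPM (145 UMIs) in hRBC cells, 1.70-fold lower (1.31 to 2.21). Of its hRBC UMIs 40.7% came from cluster 4, whose hRBC cells were shallow and held 16.6% of all hRBC UMIs. In 5% pdRBC that cluster supplied 0.971% of the UNC5D UMIs and held 2.21% of all UMIs. Without that cluster the log2 fold of UNC5D was -0.26, and among cells of 5000 or more UMIs -0.05, both short of the threshold. UNC5C had 13 and 12 UMIs, and UNC50 had 55.5 and 52.2 CPM.

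Guidance genes work with co-receptors and intracellular effectors, and these lists were read beside the members. Of all genes with 100 or more UMIs, 1.58% were called higher and 1.13% lower, with a median log2 fold of 0.02. At these shares lists as short as the ones below would hold few calls or none. Of 17 co-receptors and further guidance receptors or ligands 10 had 100 or more UMIs, with 0 called higher, 2 called lower and a median log2 fold of -0.05. NRP1, the neuropilin that class 3 semaphorins share with VEGF, had 158 CPM in 5% pdRBC and 127 CPM in hRBC cells, 1.25-fold (1.17 to 1.33), while NRP2, the SEMA3F co-receptor, had 189 and 193 CPM. LINGO1, a partner of the Nogo receptor, had 17 CPM (274 UMIs) in 5% pdRBC and 130 CPM (1727 UMIs) in hRBC cells, 7.61-fold lower (6.71 to 8.69). DRAXIN, a secreted netrin antagonist, was the other call, with 62 UMIs in 5% pdRBC and 79 in hRBC cells, 1.54-fold lower (1.09 to 2.18). RGMB, a membrane-anchored neogenin ligand, was 1.42-fold higher (1.28 to 1.59), short of the threshold. Of 36 effectors and shedding enzymes 32 were measured, with a median log2 fold of 0.07, 1 called higher and 0 lower. Short of the threshold were ENAH at 1.18-fold, NCK2 at 1.16-fold and DOCK1 at 1.16-fold, which link guidance receptors to actin and Rac. ADAM10, which sheds ephrins, had 88.5 and 94.8 CPM. None of 10 measured arterial and 3 measured venous genes was called: HEY2, a Notch target, was 1.31-fold lower (1.13 to 1.53), HEY1 had 12.1 CPM in 5% pdRBC and 10.9 in hRBC cells, and NR2F2, the venous transcription factor, had 611 and 591 CPM. FLRT2, a membrane protein that binds Unc5 receptors and stands in both the co-receptor and the venous list, had 62.7 CPM in 5% pdRBC and 53.8 CPM in hRBC cells, 1.16-fold (1.06 to 1.28).

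More guidance genes differed between cell states than between the libraries, and the same held for all genes. Of all genes with 100 or more UMIs, 20.2% were called in at least 1 cluster, as defined below. Between the libraries 1.58% were called higher and 1.13% lower. State calls also draw on several clusters, while the libraries give 1 comparison. The cells of both libraries were clustered on variable genes from which all symbols of the guidance families had been removed, so the clusters were drawn without the members. Clusters with 50 or more cells in each library, which are clusters 0, 1, 3, 4 and 5, were read first. Of the smaller ones, clusters 2, 7 and 9 are given apart at the end, with no fixed rule behind their choice. Cluster 10, with 20 cells in 5% pdRBC and 16 in hRBC, was not read. Cluster 0 (509 cells in 5% pdRBC and 309 in hRBC) was led by TMEM158, EGR1, GEM, AMPD3, FOSB, KLF4 and ATF3, several of them immediate early genes. Cluster 1 (587 and 334 cells) was led by SOX5, GJA5, DKK2 and DACH1, of which GJA5 is an arterial connexin. Cluster 3 (127 and 354 cells) held cycling cells, and cluster 5 (173 and 237 cells) was led by MGP, FABP4, GIMAP7 and CXCL12. Another arterial connexin, GJA4, was also among the leading genes of cluster 5. Cluster 4 (54 and 1131 cells) was shallow in hRBC, with a median of 1511 UMIs per cell, against 5559 in 5% pdRBC. It gave no member call in either direction (background 0.054% higher and 0.351% lower). A member was called in a state where its CPM in the cluster was 1.5-fold or more above or below the rest of the same library, with an interval leaving out 1, in both libraries. Of the 34 members with 100 or more UMIs, 15 (44.1%) were called in at least 1 of these clusters, beside 20.2% of all genes of that depth. The calls number 7 higher and 16 lower, and no member had opposite calls in the 2 libraries. The other 19, among them PLXNA2, PLXND1, ROBO4, EPHB4 and EFNA5, were called in none of these clusters, although some were higher in the small cluster 9. The libraries come from separate perfusions, but the cells of a cluster within a group share 1 library, so cells are not replicates here either.

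**Figure D3:**
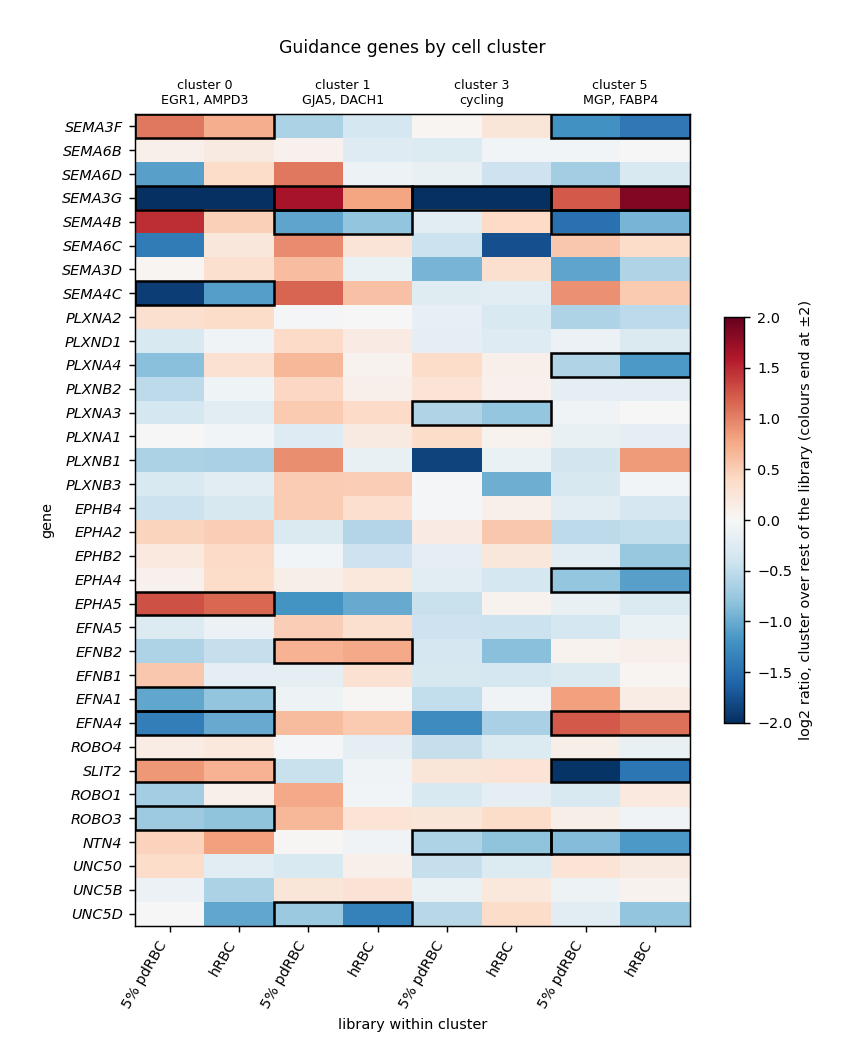
Log2 ratio of each guidance gene's level in a cluster over the rest of the same library, for the 34 genes with 100 or more UMIs (rows) in clusters 0, 1, 3 and 5, with 5% pdRBC left of hRBC; red is higher in the cluster, blue lower, colours end at 2 in either direction, and boxes mark calls in both libraries. SEMA3G is blue in clusters 0 and 3 and red in 1 and 5, while SLIT2 and SEMA3F are red in cluster 0 and blue in cluster 5.

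In cluster 0, the state led by EGR1, 3 members were higher (8.82%, beside a background of 2.18%) and 5 lower (14.7%, beside 4.63%). The secreted ligands SLIT2 and SEMA3F were among the higher ones. The 300 bases around the starts of their RefSeq transcripts are shown because both were called higher here and lower in cluster 5. The windows run from 250 bases before to 50 after the start in GRCh38.p14, 5′ to 3′ on the gene's strand, SEMA3F at chr3:50154808-50155107 on the plus strand and SLIT2 at chr4:20251655-20251954 on the plus strand. Capitals mark matches on either strand to the motif letters of the EGR (GCGNGGGCG), AP-1 (TGANTCA), NF-kB (GGGA and CC with any 4 bases between) and KLF (CACCC) factors.
SEMA3F: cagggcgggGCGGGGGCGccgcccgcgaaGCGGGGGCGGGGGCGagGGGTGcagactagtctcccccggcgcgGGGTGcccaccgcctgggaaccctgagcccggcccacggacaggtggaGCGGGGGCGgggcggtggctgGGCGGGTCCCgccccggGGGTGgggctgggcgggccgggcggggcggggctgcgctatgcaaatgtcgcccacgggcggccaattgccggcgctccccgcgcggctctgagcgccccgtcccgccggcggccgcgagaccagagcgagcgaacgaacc
SLIT2: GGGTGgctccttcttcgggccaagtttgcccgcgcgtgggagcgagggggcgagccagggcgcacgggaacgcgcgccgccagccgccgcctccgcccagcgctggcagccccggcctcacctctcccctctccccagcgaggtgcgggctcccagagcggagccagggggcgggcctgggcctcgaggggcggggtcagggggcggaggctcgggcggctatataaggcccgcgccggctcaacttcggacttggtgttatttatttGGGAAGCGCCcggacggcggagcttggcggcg
The SEMA3F window holds 4 EGR matches, of which 2 overlap, 1 NF-kB match and 3 KLF matches. The SLIT2 window holds 1 NF-kB and 1 KLF match. Of 35116 promoter windows of this length 9.43% hold the EGR letters, 7.71% the AP-1 letters, 25.6% the NF-kB letters and 59.9% the KLF letters. Of the 44 members with a window, 9, 1, 16 and 31 hold them in that order. These matches are letters in a window and not sites of binding, and the SEMA3F window is 81.3% G or C.

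SLIT2 had 124 CPM in cluster 0 against 68.5 CPM in the other cells of the 5% pdRBC library, 1.82-fold (1.64 to 2.02), and in hRBC 117 against 72.2 CPM, 1.62-fold (1.43 to 1.83). SEMA3F had 122 against 59.0 CPM in 5% pdRBC, 2.07-fold (1.86 to 2.32), and 127 against 77.1 CPM in hRBC, 1.65-fold (1.46 to 1.85). Cluster 0 supplied 54.9% of all SEMA3F UMIs in 5% pdRBC and 36.9% in hRBC, while its share of all UMIs was 37.0% and 26.2%. EPHA5 was the third, with 30 of its 51 UMIs in 5% pdRBC and 22 of its 50 in hRBC found in cluster 0. NTN4, called in 1 library only, was 1.38-fold higher there in 5% pdRBC and 1.77-fold in hRBC.

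The members lower in cluster 0 were SEMA3G, SEMA4C, EFNA1, EFNA4 and ROBO3. SEMA3G had 2.35 CPM in cluster 0 against 17.3 CPM in the other 5% pdRBC cells, 7.14-fold lower, and 2.29 against 13.8 CPM in hRBC, 5.71-fold lower. EFNA1 was 2.05-fold lower in 5% pdRBC and 1.73-fold in hRBC, and its neighbour EFNA4 2.61-fold and 2.01-fold. SEMA4C was 3.67-fold lower in 5% pdRBC, on 13 UMIs in the cluster, and 2.15-fold in hRBC, on 8. ROBO3 was 1.66-fold and 1.74-fold lower. The 2 Slit and semaphorin ligands that were higher and SEMA3G are all secreted, so the state does not divide secreted from membrane-bound members.

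SEMA3G was called in each of clusters 0, 1, 3 and 5. Its window, at chr3:52445054-52445353 on the minus strand, is shown against that of SEMA3F, which lies 2240.0 kb away on the same chromosome arm. SEMA3F was called the opposite way in clusters 0 and 5, and was not called in clusters 1 and 3. Capitals mark the same motifs.
SEMA3G: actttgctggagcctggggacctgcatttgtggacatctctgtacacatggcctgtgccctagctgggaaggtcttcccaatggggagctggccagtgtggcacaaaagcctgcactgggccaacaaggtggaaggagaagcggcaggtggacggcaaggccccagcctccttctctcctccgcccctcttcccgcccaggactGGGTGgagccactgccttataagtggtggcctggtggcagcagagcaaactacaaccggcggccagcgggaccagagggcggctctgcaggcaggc
It holds 1 KLF match and none of the EGR, AP-1 or NF-kB letters, and 63.3% of its bases are G or C. No match says only that these letters are not in this window.

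In cluster 1, the state led by SOX5 and GJA5, EFNB2 and SEMA3G were higher (5.88%, beside 1.93%) and SEMA4B and UNC5D lower (5.88%, beside 4.45%). EFNB2 had 230.0 CPM there against 142 CPM in the other 5% pdRBC cells, 1.62-fold (1.5 to 1.75), and 214 against 127 CPM in hRBC, 1.69-fold (1.54 to 1.86). SEMA3G had 21.4 against 6.85 CPM in 5% pdRBC, 3.12-fold (2.31 to 4.25), and 15.7 against 9.09 CPM in hRBC, 1.74-fold (1.21 to 2.45). SEMA3G lay higher still in cluster 5, as given below. EPHB4, the venous partner of EFNB2, did not lie lower there: it had 215 against 151 CPM in 5% pdRBC and 185 against 147 CPM in hRBC, 1.43-fold (1.32 to 1.54) and 1.26-fold (1.15 to 1.39). SEMA4B was 2.08-fold lower in 5% pdRBC and 1.73-fold in hRBC, and UNC5D 1.66-fold and 2.55-fold.

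In cluster 5, led by MGP and FABP4, 2 members were higher (5.88%, beside 3.6%) and 6 lower (17.6%, beside 6.08%). SEMA3G was again higher, with 23.1 against 9.98 CPM in 5% pdRBC, 2.33-fold (1.65 to 3.21), and 29.1 against 8.09 CPM in hRBC, 3.61-fold (2.50 to 5.11). EFNA4 was 2.33-fold higher in 5% pdRBC and 2.14-fold in hRBC. Cluster 1 supplied 61.6% and cluster 5 26.8% of the SEMA3G UMIs of 5% pdRBC, against 37.5% and 34.7% of those of hRBC. SLIT2 was lower, with 25.4 against 99.2 CPM in 5% pdRBC, 3.87-fold, and 33.1 against 91.4 CPM in hRBC, 2.74-fold. SEMA3F was 2.31-fold lower in 5% pdRBC and 2.70-fold in hRBC, and NTN4 1.82-fold and 2.22-fold. The receptors PLXNA4 (1.52-fold and 2.22-fold lower) and EPHA4 (1.71-fold and 2.12-fold lower) and the ligand SEMA4B (2.80-fold and 1.90-fold lower) complete the list. SLIT2 and SEMA3F therefore lay high in cluster 0 and low in cluster 5, and SEMA3G and EFNA4 the other way round, in both libraries.

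In the cycling cells of cluster 3 no member with 100 or more UMIs was higher (0.0%, beside a background of 6.09%), and 3 were lower (8.82%, beside 1.48%). NTN4 had 86.5 against 133 CPM in 5% pdRBC, 1.53-fold lower, and 66.2 against 117 CPM in hRBC, 1.75-fold lower. PLXNA3 was 1.52-fold lower in 5% pdRBC and 1.71-fold in hRBC. SEMA3G had 4 UMIs in cycling cells of each library, 2.77 against 12.7 CPM in 5% pdRBC and 2.12 against 12.2 CPM in hRBC.

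Within clusters, some family sums and some members differed between the libraries in opposite directions. The share of all genes that do so was not counted. The plexin sum had a log2 fold of -0.16 (-0.23 to -0.10) in cluster 0 and -0.29 (-0.49 to -0.11) in cluster 4. It had 0.09 (0.03 to 0.16) in cluster 1 and 0.13 (0.01 to 0.24) in cluster 3. The ephrin sum had -0.41 (-0.73 to -0.12) in cluster 4 and 0.24 (0.05 to 0.42) in cluster 3. In the small clusters described below it had -0.63 (-0.97 to -0.29) in cluster 9 and 0.66 (0.17 to 1.17) in cluster 7. PLXNA4 had 57.9 CPM (345 UMIs) in the cluster 0 cells of 5% pdRBC against 85.5 CPM (299 UMIs) in those of hRBC, a log2 fold of -0.56 (-0.79 to -0.33). In cluster 1 it had 115 CPM in 5% pdRBC and 76.3 CPM in hRBC, a log2 fold of 0.59 (0.38 to 0.81). It was also higher in 5% pdRBC in cluster 3, at 0.47 (0.14 to 0.80), and in cluster 5, at 0.75 (0.31 to 1.22), so the pooled fold of 1.18 averages over states that differ in direction. SEMA6D had 14.4 CPM in 5% pdRBC and 25.4 CPM in hRBC in cluster 0, a log2 fold of -0.82 (-1.26 to -0.37), and 37.5 and 20.1 CPM in cluster 1, a log2 fold of 0.89 (0.50 to 1.32). ROBO1 did likewise, at -0.48 (-0.93 to -0.01) in cluster 0 and 0.57 (0.16 to 1.00) in cluster 1. SEMA6C was higher in 5% pdRBC in cluster 1, with 16.6 and 8.15 CPM and a log2 fold of 1.01 (0.40 to 1.70), and not in cluster 0, with 5.54 and 8.01 CPM. EFNB1 was lower in 5% pdRBC in cluster 1, at a log2 fold of -0.75 (-1.08 to -0.43), and in cluster 5, at -0.69 (-1.21 to -0.17), but not in cluster 0, at 0.06 (-0.25 to 0.38). EPHB4, EFNB2, SEMA6B, PLXNA3, ROBO3 and PLXNB3 had folds above 1 in each of clusters 0, 1, 3 and 5. The lowest log2 fold was 0.004 for PLXNB3 and 0.017 for EPHB4, close to no difference. Cluster 4, with 54 cells in 5% pdRBC and 1131 in hRBC, was left out of these comparisons of single genes.

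**Figure D4:**
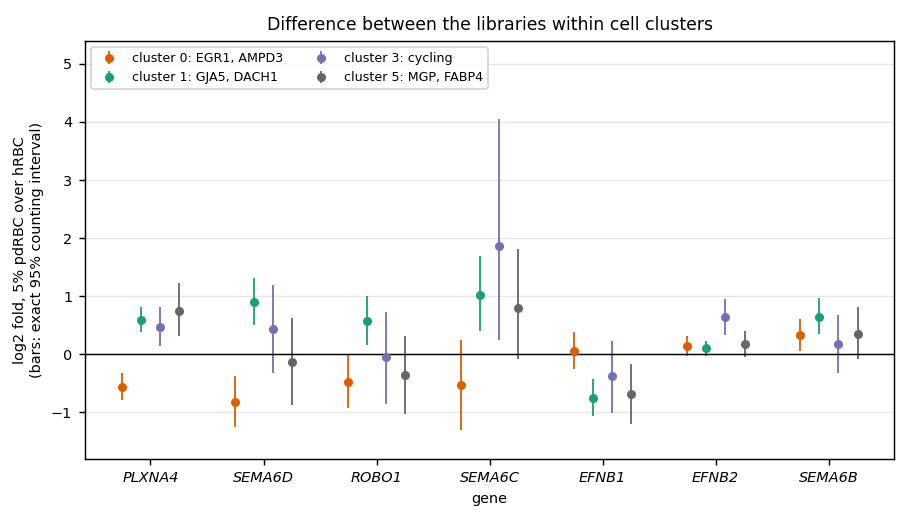
Log2 fold of 5% pdRBC over hRBC inside clusters 0, 1, 3 and 5 (one colour each) for 7 guidance genes, with exact 95% counting intervals. PLXNA4, SEMA6D and ROBO1 lie below 0 in cluster 0 and above 0 in cluster 1, while EFNB2 and SEMA6B lie above 0 in all 4 clusters.

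A few members stood out in small clusters, with under 50 cells in at least 1 library. EFNA1 had 191 CPM in cluster 7, the chemokine state led by SELE, CXCL1 and CCL2, against 14.8 CPM in the rest of the 5% pdRBC library, and 77.5 against 14.2 CPM in hRBC. These are 13.1-fold (8.51 to 18.9) on 30 UMIs from 16 cells of 5% pdRBC, and 5.63-fold (2.92 to 9.37) on 14 UMIs from 81 cells of hRBC. It was the only member called there (background 0.702% higher). Its window, at chr1:155127626-155127925 on the plus strand, is shown because EFNA1 had the largest fold of the ligands called in a cluster. Capitals mark the same motifs.
EFNA1: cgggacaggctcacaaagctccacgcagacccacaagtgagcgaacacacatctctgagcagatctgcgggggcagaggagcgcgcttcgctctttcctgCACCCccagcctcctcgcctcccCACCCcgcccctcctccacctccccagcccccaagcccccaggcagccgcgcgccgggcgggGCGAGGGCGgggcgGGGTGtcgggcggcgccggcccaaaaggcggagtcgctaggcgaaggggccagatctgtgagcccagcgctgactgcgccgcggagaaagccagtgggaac
It holds 1 EGR match and 3 KLF matches, and no NF-kB or AP-1 letters.

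UNC5D was the member called in cluster 2 (38 cells in 5% pdRBC and 24 in hRBC; background 1.07% higher), a cluster led by antisense RNAs with CRMP1 and ANK2. It had 139 against 5.19 CPM in 5% pdRBC and 67.1 against 10.2 CPM in hRBC, on 20 and 10 UMIs. ANK2, WWTR1-AS1, SMARCA5-AS1 and GLT8D2 were among the leading genes of both cluster 2 and cluster 4. When the guidance genes were kept among the clustering genes, 28 of the 62 cells of cluster 2 stayed together, so this cluster depends on the genes used to draw it. In cluster 9 (46 and 35 cells, led by ZNF92 and BUB1B) 10 of the 34 members (29.4%) were higher, beside 12.6% of all genes, and 0 lower, beside 6.7%. They were PLXNA2, PLXND1, PLXNA4, PLXNB1, PLXNB2, EFNA5, EPHA4, NTN4, SEMA6D and ROBO1. EFNA5 had 796 CPM in cluster 9 of 5% pdRBC against 178 CPM in the rest, 4.50-fold (3.68 to 5.41), and 1272 against 159 CPM in hRBC, 8.02-fold (6.61 to 9.58). PLXNA2 was 3.37-fold higher in 5% pdRBC and 3.2-fold in hRBC. The 10 genes span a median of 189 kb in the annotation, against 22.2 kb for the other 24 members. Whether the deposited counts include reads within introns is not given in the sources used here.

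**Figure D5:**
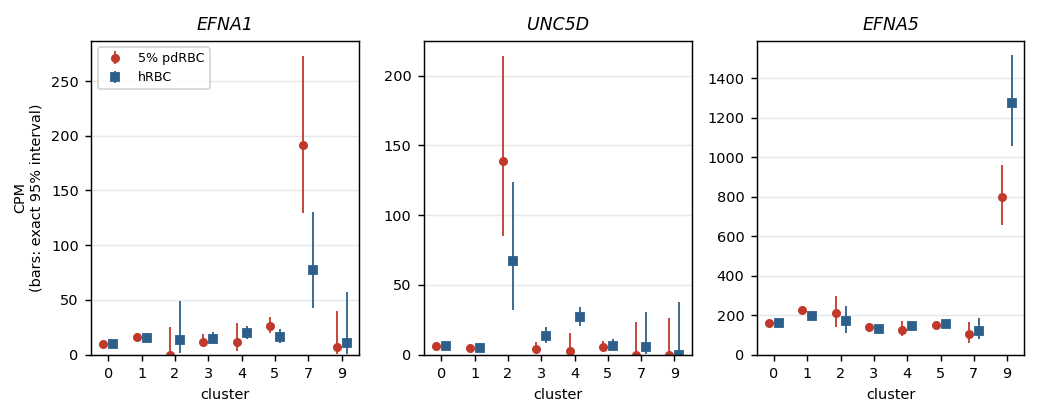
Levels in CPM of EFNA1, UNC5D and EFNA5 in 8 clusters, with 5% pdRBC as circles, hRBC as squares and exact 95% counting intervals. EFNA1 peaks in cluster 7 (191 in 5% pdRBC and 77.5 in hRBC), UNC5D in cluster 2 (139 and 67.1) and EFNA5 in cluster 9 (796 and 1272).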

How the data were processed

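The authors deposited raw counts of UMIs for each gene and barcode, made with Cell Ranger 7.0.0 on GRCh38, per the submitters' processing notes, from 5′ libraries, per the labels' protocols. No source used here gives the annotation release, the use of strand or whether introns were counted. Cells were barcodes with at least 1000 UMIs and 500 genes and no more than 20% mitochondrial UMIs. Scrublet marked 5 of 1601 cells in 5% pdRBC and 1 of 2555 in hRBC, so few that doublets cannot be considered removed. The libraries' cells were clustered jointly in Scanpy 1.11.5 (2000 variable genes, 30 principal components, 15 neighbours, Leiden resolution 0.5 with python-igraph 0.11.9, seed 0). All symbols matching the guidance pattern, members or not, were left out of the clustering genes. Clusters were described by some of their leading genes, ranked in these same data by level over the other cells. By fixed markers and depth, all but cluster 11 (14 cells of 5% pdRBC) were endothelial-like. UMIs were summed per library, or per cluster and library, and divided by the total to give CPM. Intervals of folds are exact Clopper-Pearson intervals of the split of the UMIs (SciPy 1.17.1), and intervals of levels are exact Poisson ones. A count of 0 allows up to 3 counts, 0.186 CPM in 5% pdRBC and 0.225 CPM in hRBC. The fold and its interval were tested on simulated data. Named genes are all members with 200 or more UMIs, every member called, and, of each related list, up to 4 genes with the largest folds whose intervals leave out 1, with a few background genes; the 1 effector called higher is not reported here by name. Members given beyond these, with UMIs or within states, were chosen after their values were seen. The members and the lists were chosen with earlier results of these data known. Positions came from GENCODE 29 (49 of 49 members matched by identifier) and promoter windows from RefSeq GRCh38.p14 (44 of 49 matched by symbol). Alternatives were other cell filters, equal weight per cell, thinning to 2000 UMIs, other scalings, another added count and other clusterings.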

Additional observations from a re-analysis of the deposited data

Results flagged for a closer look

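For 3 guidance genes the difference between the libraries ran in opposite directions in different cell clusters, each with an interval that left out 0. PLXNA4 had a log2 fold of 5% pdRBC over hRBC of -0.56 in cluster 0, against 0.59 in cluster 1, 0.47 in cluster 3 and 0.75 in cluster 5. SEMA6D had -0.82 in cluster 0 and 0.89 in cluster 1. ROBO1 had -0.48 in cluster 0 and 0.57 in cluster 1. With 1 library per group the difference between clusters was not tested. Among cells of 5000 or more UMIs, PLXNA4 gave -0.52 (-0.75 to -0.28) in cluster 0 and 0.61 (0.39 to 0.83) in cluster 1, and SEMA6D -0.92 (-1.38 to -0.46) and 0.97 (0.55 to 1.42). These deeper cells held 344 PLXNA4 UMIs in cluster 0 of 5% pdRBC and 280 in hRBC, nearly all of that cluster's PLXNA4 UMIs. With the guidance genes kept among the clustering genes, PLXNA4 gave -0.56 and 0.64 and SEMA6D -0.46 (-0.90 to -0.03) and 0.70 (0.28 to 1.15). There 748 of 818 cluster 0 cells and 817 of 921 cluster 1 cells stayed together. Both settings thus reuse mostly the same counts and are no independent check. The ROBO1 interval reached 0 in cluster 0 among the deeper cells (-0.44, -0.90 to 0.03) and in cluster 1 with the guidance genes kept (0.40, -0.02 to 0.86).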

How the results depend on the processing

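No paired analysis was possible because each group is 1 library, and no replicate could be left out. The 3 calls higher became 1 at a gene minimum of 100 UMIs, 0 with cells thinned to 2000 UMIs and 1 without cluster 4. The 3 calls lower became 1 at a gene minimum of 100 UMIs and 1 without the antisense RNAs and UNC50. The median log2 fold of the members ranged from 0.071 to 0.25 over the alternatives. With every cell weighted equally the plexin sum had a log2 fold of 0.076 and the ephrin sum 0.16; with thinned cells the Eph receptor sum had 0.17 and the ephrin sum 0.19. UNC5B, at a log2 fold of -0.40, gave 0.31 with thinned cells, SEMA3F-AS1, at -1.22, gave -0.18 with thinned cells, and UNC5D, at -0.77, gave -0.26 without cluster 4 and -0.05 among cells of 5000 or more UMIs. SEMA6C, at a log2 fold of 0.65, ranged from 0.53, short of the threshold, to 0.83. Other scalings moved all log2 folds by -0.02 or -0.01. Of the 15 members called by state, 6 were called at 2-fold, and the cause was not tested. Of all genes with 100 or more UMIs, 7.37% were called at 2-fold, against 20.2% at 1.5-fold. With thinned cells 7 members were called, of which 5 were shared, beside 11.1% of all those genes. At clustering resolution 1.0 there were 14, of which 12 were shared, beside 19.8%. With the guidance genes kept for clustering there were 11, all shared, beside 18.9%. Leaving out cluster 4, barcodes in both libraries, or the antisense RNAs and UNC50, and the 2-fold threshold, were chosen after seeing the data. Depth limits the comparison: 1557 cells of 5% pdRBC and 1375 of hRBC reach 2000 UMIs, and 15 members have 20 to 99 UMIs over both libraries.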
